A study of Homo sapiens with 7 samples.

Results

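RNASE1, STC1, PI15, LYZ, TMEM158, OTULINL, ZAP70 and UBAP1L are 8 of the 21305 genes with a normalized count in 501Mel cells, a human melanoma line with melanocytic features. The 8 genes were picked by name for their large shifts between GRASLND knockdown and control, with the values of these same libraries in view. Their differences from control are therefore given as descriptions without a test. Each of the 7 RNA-seq libraries came from 501Mel cells that carried a doxycycline-induced short hairpin RNA (shRNA). The 3 control libraries expressed shlacZ, a hairpin against bacterial lacZ, and the hairpins sh4 and sh8, each with 2 libraries, were directed at the long non-coding RNA GRASLND. All 7 libraries, control included, came from cells given doxycycline. Per the methods of the study, each hairpin line was a puromycin-selected pool of cells transduced with a lentiviral vector, so no clone was compared. Nothing in the labels says whether libraries of a group came from separate cultures, and the p-values below measure the spread between these libraries, which may be technical.

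The genes belong to no common pathway. RNASE1, STC1, PI15 and LYZ encode secreted proteins: pancreatic-type ribonuclease, the glycoprotein hormone stanniocalcin, a CAP family protease inhibitor and the bacteriolytic enzyme lysozyme. TMEM158 encodes a membrane protein first described as induced by oncogenic Ras, and OTULINL an endoplasmic reticulum relative of the linear-ubiquitin protease OTULIN that lacks its catalytic activity. ZAP70 encodes the SYK family tyrosine kinase of T cell receptor signalling, and UBAP1L a relative of UBAP1, a subunit of the membrane-sorting complex ESCRT-I.

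The libraries held 13337317 to 22855232 reads in genes, and a single read was worth 0.746 to 1.32 normalized counts, that is, reads divided by the size factor of the library. GRASLND had normalized counts of 309, 330 and 290 in the shlacZ libraries, 175 and 131 under sh4, and 227 and 163 under sh8. All 4 knockdown libraries lay below all 3 control libraries, and the sh4 and sh8 libraries overlapped. On the log2(normalized count + 1) scale used for all log2 values here, GRASLND fell by 1.02 under sh4 (limma, adjusted p = 0.00662), and its difference under sh8 was -0.68 (limma, adjusted p = 0.110). The difference of GRASLND between sh4 and sh8 was -0.34 (95% interval -0.84 to 0.16, limma, adjusted p = 0.421).

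To show the regulatory sequence next to genes that move together, the 250 bases before the RefSeq transcription start (GRCh38.p14) were read for the 5 members with a promoter window, RNASE1, TMEM158, OTULINL, ZAP70 and UBAP1L. LYZ, STC1 and PI15 have none here. RNASE1 had 2 windows and ZAP70 3, and only the window nearest the annotated gene start was read. Sequences run 5′ to 3′ on the strand of the gene, and capitals mark any match to 5 motifs on either strand, with overlapping matches counted separately. The motif of AP-1 was searched loosely as TGANTCA, with any base at N. E-boxes were searched in their palindromic form CACGTG and in a second form known from MITF targets, CATGTG. The motif of TEAD factors was searched as GGAATG. The core promoter elements were the TATA box, written TATAAA, and the GC box bound by Sp1, which was written GGGCGG. Printed are 3 of the higher genes, RNASE1, ZAP70 and TMEM158, and the lower gene UBAP1L.
RNASE1 at chr14:20802845-20803094, minus strand: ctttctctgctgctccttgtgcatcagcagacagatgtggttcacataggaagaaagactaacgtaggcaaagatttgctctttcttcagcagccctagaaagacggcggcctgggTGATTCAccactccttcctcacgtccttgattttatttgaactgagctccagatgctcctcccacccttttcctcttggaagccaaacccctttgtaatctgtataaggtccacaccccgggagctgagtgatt
ZAP70 at chr2:97713326-97713575, plus strand: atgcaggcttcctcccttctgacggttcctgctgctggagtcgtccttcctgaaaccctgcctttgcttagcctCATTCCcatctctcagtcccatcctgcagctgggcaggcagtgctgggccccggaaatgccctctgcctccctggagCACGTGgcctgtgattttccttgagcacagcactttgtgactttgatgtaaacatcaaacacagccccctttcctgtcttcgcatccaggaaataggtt
TMEM158 at chr3:45226288-45226537, minus strand: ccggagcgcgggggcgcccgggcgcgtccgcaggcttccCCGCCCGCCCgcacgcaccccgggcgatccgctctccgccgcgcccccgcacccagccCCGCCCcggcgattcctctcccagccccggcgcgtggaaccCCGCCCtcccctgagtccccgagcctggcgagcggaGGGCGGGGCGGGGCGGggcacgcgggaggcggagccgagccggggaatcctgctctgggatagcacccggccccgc
UBAP1L at chr15:65115201-65115450, minus strand: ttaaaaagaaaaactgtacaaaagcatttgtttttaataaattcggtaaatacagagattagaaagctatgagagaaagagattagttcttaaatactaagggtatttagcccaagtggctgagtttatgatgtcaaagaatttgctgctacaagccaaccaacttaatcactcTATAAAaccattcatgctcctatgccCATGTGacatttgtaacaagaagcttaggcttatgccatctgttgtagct

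These stretches had little in common. The RNASE1 stretch held 5 CpG dinucleotides and a match to the AP-1 letters, TGATTCA, that began 134 bases before the start. Of all 35116 windows, 6.57% held the searched letters TGANTCA. ZAP70 also had 5 CpG dinucleotides, with an E-box (CACGTG) 99 bases and a TEAD match 176 bases before the start. E-box letters were in 15.2% and TEAD letters in 11.9% of all windows. TMEM158 had 39 CpG dinucleotides, more than 97.3% of windows, and 7 GC box matches. OTULINL, at chr5:14581542-14581791 on the plus strand, was also rich in CpG with 25, and had 4 GC box matches. GC box letters were in 42.6% of windows, and the median window held 11 CpG dinucleotides. UBAP1L had 1 CpG dinucleotide, a CATGTG E-box 50 bases and a TATA box 76 bases before the start, the last found in 10.7% of windows. A match is a run of letters and not a measured binding site.

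To describe each gene, the value in every library is given first. RNASE1 (ENSG00000129538, chr14:20801228-20802855, minus strand) was nearly silent in control cells, with normalized counts of 1.03, 4.19 and 8.70 in the shlacZ libraries. It reached 312 and 396 under sh4, and 91.0 and 94.6 under sh8. The 3 groups did not overlap, in the order sh4, sh8, shlacZ. The mean was 4.64 ± 3.85 in control (SD, n = 3), against 354 ± 59.3 with sh4 and 92.8 ± 2.62 with sh8 (SD, n = 2 each). The control level rested on 15 reads, and 1 of the 3 libraries had a single read. The ratio of pooled reads between sh4 and control was 74.2, with an exact 95% interval of 44.7 to 133. Between sh8 and control it was 19.1 (11.3 to 34.8). These intervals, here and below, cover counting error only. On the log2(normalized count + 1) scale RNASE1 had the largest pooled difference of the 15420 genes tested, 5.28 ± 0.64 (SE), whereas with limma-voom on recovered reads LYZ stood above it (7.48 against 5.87).

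STC1 (ENSG00000159167, chr8:23841929-23854806, minus strand) had normalized counts of 38.2, 34.6 and 69.6 in shlacZ libraries. Its values were 702 and 781 under sh4, and 117 and 256 under sh8. The groups were again separate in the order sh4, sh8, shlacZ, but the sh8 libraries differed from each other 2.18-fold. The pooled read ratio to control was 15.4 (13.0 to 18.3) under sh4 and 4.08 (3.37 to 4.97) under sh8. With 150 reads in control, STC1 was measured above the floor in every library.

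LYZ (ENSG00000090382, chr12:69348381-69354234, plus strand) stood apart from the other higher genes. It had 0, 4 and 2 reads in the shlacZ libraries, which are normalized counts of 0, 4.19 and 1.74. The library at 0 allows a level of up to 3.10 normalized counts, the value of 3 reads there. Under sh8 LYZ had 4 and 8 reads, or 5.27 and 7.28 normalized counts. Under sh4 it had 298 and 659 reads, or 337 and 492 normalized counts. Both sh4 libraries were far above the other 5, while the lowest sh8 library was only 1.08 normalized counts above the highest control. The pooled read ratio to control was 220 (101 to 602) under sh4 and 3.31 (1.15 to 10.7) under sh8. On the log2(normalized count + 1) scale LYZ had the largest difference of all tested genes under sh4, 7.40 ± 0.65 (SE). Its sh8 difference of 1.57 ± 0.65 (SE) rested on 12 reads against 6.

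TMEM158 (ENSG00000249992, chr3:45224466-45226287, minus strand), a gene of 1 exon, had normalized counts of 8.26, 11.5 and 7.83 in control. It had 166 and 236 under sh4, and 27.7 and 42.8 under sh8. No group overlapped another. The control value was the sum of 28 reads, and the pooled read ratio to control was 22.8 (15.6 to 34.7) under sh4 and 4.02 (2.55 to 6.48) under sh8.

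OTULINL (ENSG00000145569, chr5:14581792-14616180, plus strand) had normalized counts of 37.2, 26.2 and 30.4 in control. The sh4 libraries had 645 and 1002, and the sh8 libraries 179 and 210. The sh8 libraries lay well above control and well below sh4. The pooled read ratio to control was 27.5 (22.4 to 34.1) under sh4 and 6.33 (5.04 to 8.004) under sh8.

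ZAP70 (ENSG00000115085, chr2:97713576-97739862, plus strand) had normalized counts of 8.26, 17.8 and 20.9 in control. They were 355 and 357 under sh4, and 68.5 and 113 under sh8. The sh4 libraries were almost equal, with a coefficient of variation of 0.425%, while the control libraries varied by 42.1%. The pooled read ratio to control was 22.3 (16.7 to 30.4) under sh4 and 5.94 (4.31 to 8.33) under sh8.

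PI15 (ENSG00000137558, chr8:74824534-74855029, plus strand) was lower in knockdown. Its normalized counts were 1623, 1367 and 1273 in control, 239 and 179 under sh4, and 308 and 337 under sh8. All control libraries lay above all sh8 libraries, and these above both sh4 libraries. The pooled read ratio to control was 0.144 (0.130 to 0.158) under sh4 and 0.230 (0.211 to 0.251) under sh8. The annotated lncRNA ENSG00000253706 overlaps PI15 on the other strand, and whether reads were counted by strand is not stated in the sources used here.

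UBAP1L (ENSG00000246922, chr15:65092760-65115200, minus strand) varied widely between the control libraries. Its normalized counts were 2994, 1586 and 985 in the shlacZ libraries, 298 and 154 under sh4, and 339 and 207 under sh8. The control libraries spanned 3.04-fold, the lowest of them was still 646 normalized counts above the highest knockdown library, and sh4 overlapped sh8. In each group the value fell with the replicate number, and sh4 lay below sh8 at the same number. The pooled read ratio to control was 0.117 (0.106 to 0.129) under sh4 and 0.145 (0.132 to 0.159) under sh8.

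**Figure D1:**
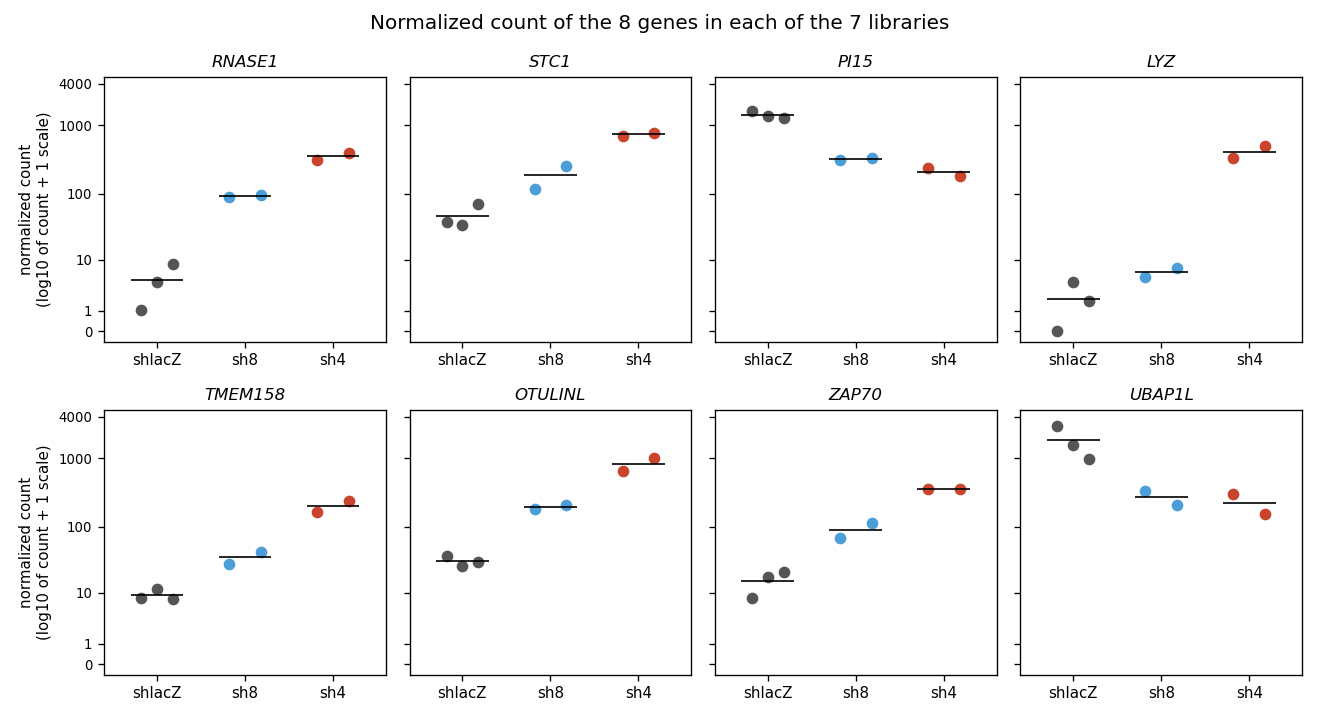
Normalized count of each of the 8 genes (y axis, log10 of the count + 1, labelled in normalized counts) in each library, with shlacZ in grey, sh8 in blue and sh4 in red, and a black line at the group mean. LYZ in sh8 sits at 5.27 and 7.28, next to control, while the other 5 higher genes lie between control and sh4 there, and sh4 overlaps sh8 only in UBAP1L.

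Levels between genes can be compared per kilobase of the canonical transcript, a scale that is used in this paragraph only. In control cells UBAP1L had a mean of 1087 normalized counts per kilobase, above 94.0% of tested genes, and PI15 had 211, above 65.5%. The 6 higher genes were at the bottom of the range in control, from 1.33 for LYZ to 12.3 for STC1. Under sh4 the order changed, with RNASE1 at 387 (above 80.9% of tested genes), LYZ at 278 and STC1 at 192. ZAP70 had 147, UBAP1L 132, OTULINL 117, TMEM158 110 and PI15 31.1. Under sh8 the highest were UBAP1L with 160 and RNASE1 with 102, and LYZ stayed lowest with 4.21.

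Both hairpin comparisons share the 3 control libraries and are set side by side as values. A gene was called when its limma adjusted p was under 0.05 and its log2 difference exceeded 1 in size. Of all tested genes, 1.30% were called higher and 0.694% lower in the 4 knockdown libraries together. Among the members 5 of the 6 higher genes met this rule, LYZ being the exception, as did both lower genes. With sh4 the rule was met by 4.79% of tested genes on the higher side and 3.37% on the lower, and by all 6 and both of the members. Under sh8, with 0.649% called higher and 0.506% lower, 5 of 6 and both did, LYZ again being the exception. The members were chosen on these contrasts, so nothing is read from the counts. All 6 higher genes had both sh4 libraries above both sh8 libraries and these above all control libraries, an order seen in 4.88% of tested genes.

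The size of the sh8 shift differed between the genes. On the log2 scale it was 89.6% of the sh4 shift for UBAP1L, 77.0% for PI15 and 69.4% for RNASE1. It was 56.1% for OTULINL, 55.6% for ZAP70, 47.8% for STC1 and 42.2% for TMEM158. LYZ had the smallest share, 21.3%.

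**Figure D2:**
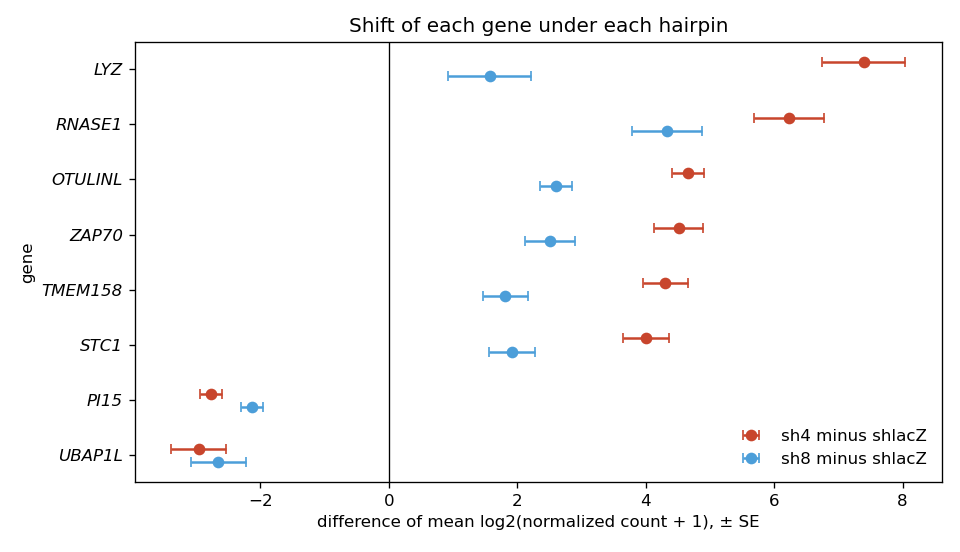
Difference of the mean log2(normalized count + 1) from shlacZ (x axis, points with SE) for each gene (y axis) under sh4 in red and sh8 in blue. LYZ shows the widest gap, 7.40 against 1.57, and UBAP1L the narrowest, -2.96 against -2.65.

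To determine which genes responded differently to the hairpins, sh4 and sh8 were compared directly, a difference that uses no control value. In this comparison the genes called made up 1.93% of those tested on the sh4-higher side and 1.26% on the other. LYZ was chosen for this difference and is described only: the log2 difference was 5.82 ± 0.71 (SE), and the ratio of pooled reads was 66.6 (37.9 to 129). The 7 other genes were picked for large shifts with the sh4 values in view, which can favour a difference between the hairpins. Their p-values are therefore no independent test. Of these 7, 4 were called, each higher under sh4 in both libraries. TMEM158 was 2.49 ± 0.38 (SE) higher (limma, adjusted p = 0.00581) and OTULINL 2.04 ± 0.27 (SE) higher (limma, adjusted p = 0.00303). STC1 was 2.09 ± 0.40 (SE) higher (limma, adjusted p = 0.0135) and ZAP70 2.00 ± 0.42 (SE) higher (limma, adjusted p = 0.0205). In normalized counts these are ratios of group means of 5.70, 4.23, 3.98 and 3.92. With 2 libraries a group the calls were not robust to single libraries: 0 of the 7 were called without sh4 library 2, 1 without sh8 library 1 and 2 without sh4 library 1. The lowest differences without 1 library were still 2.18, 1.73, 1.53 and 1.65, in the same order.

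RNASE1 had a difference of similar size that missed the threshold, 1.91 ± 0.60 (SE, 95% interval 0.58 to 3.24, limma, adjusted p = 0.0864). Its variance estimate includes the control libraries with 1 to 10 reads. Fitted on the 4 knockdown libraries alone the difference was again 1.91 and was called (limma, adjusted p = 0.000595), as it was without shlacZ library 1 (limma, adjusted p = 0.00487). PI15 was -0.64 ± 0.19 (SE, 95% interval -1.05 to -0.22, limma, adjusted p = 0.0707), lower under sh4 in both libraries. UBAP1L differed by -0.31 ± 0.47 (SE, 95% interval -1.35 to 0.74, limma, adjusted p = 0.761), an interval that holds differences of over 1 log2 unit, and the sign turned without sh4 library 2 (0.17) or without sh8 library 1 (0.045). The counting intervals of pooled reads were 0.552 to 0.707 for PI15 and 0.711 to 0.920 for UBAP1L. With the replicate number as a block, PI15 stayed at -0.64 (limma, adjusted p = 0.0477), short of the fold threshold. UBAP1L stayed at -0.31 in that fit (limma, adjusted p = 0.267).

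**Figure D3:**
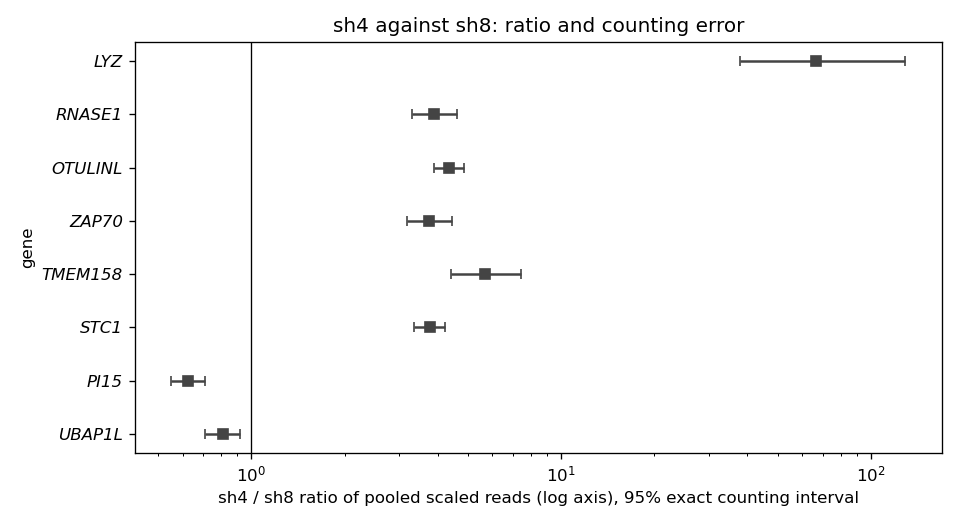
Ratio of pooled scaled reads, sh4 over sh8 (x axis, log scale), with the exact 95% counting interval, for each gene (y axis). LYZ lies at 66.6, the 5 other higher genes between 3.76 and 5.68, and the lower genes PI15 and UBAP1L below 1.

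Genes related to the members by family or complex were taken from 7 lists of 97 genes, of which 53 could be tested. In knockdown 1 of the 53 was called higher and 1 lower (1.30% and 0.694% of all tested genes), and the total of 2 became 1 to 6 when single libraries were left out: 6 without sh8 library 1, 2 without sh8 library 2 and 1 without each of the others. Under sh4 5 and 2 were called (4.79% and 3.37% of all), under sh8 0 and 0 (0.649% and 0.506% of all), and between the hairpins 2 and 0 (1.93% and 1.26% of all). RNASE6, the 1 called higher in knockdown, and LCP2 were among the 5 called higher under sh4. Both were tested only through their sh4 libraries. Under sh8 the adjusted p of limma was under 0.05 for CBLB, OTUD7B and PLCG1, all below the fold threshold. The median log2 difference of the 53 in knockdown was 0.01, next to -0.01 over all tested genes.

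In the RNase A family, 2 of the 4 tested genes were called higher under sh4 and 0 lower (4.79% and 3.37% of all tested genes). RNASE6, 1 of these 2, was among the 4 only through its sh4 libraries. RNASE6, an antimicrobial ribonuclease, had 0, 1.05 and 0 normalized counts in control, 33.9 and 20.9 under sh4, and 3.95 and 10.9 under sh8. It thus went from 1 read in control to 58 under sh4, a ratio of 80.1 with a counting interval of 13.8 to 3218, and was called in knockdown (limma, adjusted p = 0.0297) and under sh4 (limma, adjusted p = 0.00227). Its mean over the 7 libraries, 10.1, passed the minimum of 10 only through the sh4 libraries; fitted without a minimum mean the adjusted p of limma was 0.0236 in knockdown and 0.00108 under sh4. The knockdown call was lost in 8 of 15 alternatives, among them the fits without a variance trend, with a pseudocount of 10, and without either sh4 library or any 1 of the shlacZ libraries, with adjusted p-values up to 0.161. RNASE4 had 29.9, 17.8 and 11.3 in control, 68.9 and 70.2 under sh4, and 23.7 and 42.8 under sh8. It rose by 1.87 log2 units under sh4 (limma, adjusted p = 0.0130), a call lost without either sh4 library. RNH1, the cytosolic inhibitor of these ribonucleases, had a control mean of 932 ± 119 normalized counts (SD, n = 3). Its mean was 1053 ± 51.8 with sh4 and 901 ± 60.6 with sh8 (SD, n = 2 each). Its knockdown difference was 0.07 (limma, adjusted p = 0.784).

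Among 14 tested genes of SYK and ZAP70 signalling, 2 were called higher and 0 lower under sh4, next to 4.79% and 3.37% of all tested genes. SYK, the paralog of ZAP70, had normalized counts of 439, 562 and 562 in control, 1475 and 1725 under sh4, and 695 and 731 under sh8. It rose by 1.62 under sh4 (limma, adjusted p = 0.000152) and was 1.16 higher under sh4 than under sh8 (limma, adjusted p = 0.00423), the last call being lost without sh4 library 2 (the highest adjusted p over the alternatives was 0.0671). LCP2, the adaptor protein SLP-76 that ZAP70 phosphorylates, had 0, 0 and 0.870 in control, 33.9 and 55.2 under sh4, and 1.32 and 11.8 under sh8. LCP2 had 1 read in control and 104 under sh4, a ratio of 144 with a counting interval of 25.2 to 5727 (limma, adjusted p = 0.00220). LCP2 passed the minimum mean only through the sh4 libraries, so its place among the 14 tested and the 2 called depends on them. Without a minimum the adjusted p of limma was 0.00115. CBLB, a ubiquitin ligase that restrains this signalling and the most abundant of the list, had means of 3516, 6557 and 6489 in control, sh4 and sh8. Its log2 differences of 0.90 under sh4 (limma, adjusted p = 0.000554) and 0.88 under sh8 (limma, adjusted p = 0.00328) stayed under the fold threshold. So did that of PLCG2, a phospholipase activated by SYK, at -0.63 under sh4 (limma, adjusted p = 0.0180).

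Of 20 tested genes of linear ubiquitin and OTU deubiquitinases, the list of OTULINL, 1 was called lower in knockdown and under sh4 (0.694% and 3.37% of all). OTUD7B, a deubiquitinase also named Cezanne, had 2320, 2508 and 2168 in control, 1063 and 994 under sh4, and 1192 and 1214 under sh8, and fell by 1.07 in knockdown (limma, adjusted p = 0.00367). OTULIN itself, the closest relative of OTULINL, had a control mean of 1023 ± 11.7 (SD, n = 3), and means of 1110 ± 104 with sh4 and 1041 ± 11.3 with sh8 (SD, n = 2 each). The most abundant gene of the list, TNFAIP3, an inhibitor of NF-kappaB signalling, had means of 3790, 6610 and 5345 in the same order. Its difference was 0.66 in knockdown (limma, adjusted p = 0.0546) and 0.82 under sh4 (limma, adjusted p = 0.00771), the last short of the fold threshold. OTUD1 (0.73), OTUD6B (-0.43), YOD1 (-0.73) and ZRANB1 (-0.36) also had a limma adjusted p under 0.05 under sh4, short of that threshold. In the stanniocalcin and pappalysin axis 1 of 4 tested genes was called higher and 1 lower under sh4 (4.79% and 3.37% of all). IGFBP5, an insulin-like growth factor binding protein, rose by 1.12 (limma, adjusted p = 0.0254), and the growth factor IGF1 fell by 1.96 on 100 reads in control and 18 under sh4 (limma, adjusted p = 0.0315). Both calls were lost without sh4 library 2, that of IGFBP5 also without sh4 library 1 or shlacZ library 1, and that of IGF1 also without shlacZ library 2 or shlacZ library 3. IGF2R, a receptor that clears growth factor from the cell surface and the most abundant gene of that list over the 7 libraries, had means of 11046, 14352 and 12064 in control, sh4 and sh8. In control alone IGF1R, the growth factor receptor, was higher, with a mean of 12501.

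Of all tested genes, 1.30% were called higher and 0.694% lower in knockdown, 4.79% and 3.37% under sh4, and 0.649% and 0.506% under sh8. Between the hairpins the shares were 1.93% and 1.26%. For UBAP1L, 0 of 9 tested ESCRT-I genes were called in knockdown, and 0 under either hairpin. MVB12B, a subunit of that complex, was 1.04 higher under sh4 than under sh8 (limma, adjusted p = 0.00863), a call lost without any 1 of sh4 library 1, sh4 library 2 and sh8 library 2. TSG101, the most abundant subunit, had means of 862, 1132 and 928 in control, sh4 and sh8. Of the CAP family of PI15, 2 genes were tested and 0 were called. With so few genes tested, nothing is read from the counts of these lists. CRISPLD1, the more abundant and also the next gene beside PI15, had means of 416 ± 65.4 (SD, n = 3), 298 ± 22.5 (SD, n = 2) and 373 ± 20.5 (SD, n = 2). No relative of LYZ passed the filter on low values.

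To see whether genes beside the members moved with them, up to 3 tested genes on each side were compared, 49 in all, with distances in the GENCODE 44 annotation of GRCh38. In knockdown 2 were called higher and 1 lower (1.30% and 0.694% of all tested genes), and nothing is read from these counts. Under sh4 3 and 1 were called (4.79% and 3.37% of all), a share near that of all genes. Under sh8 (0.649% and 0.506% of all) and between the hairpins (1.93% and 1.26% of all) 0 passed the limma call rule. The called neighbours include RNASE6 and RNASE4, which lie 18761 and 100012 bases from RNASE1. As above, RNASE6 was tested only through its sh4 libraries. ENSG00000248791, a processed pseudogene 3840 bases beyond OTULINL and on the same strand, had 1.03, 0 and 1.74 in control, 26.0 and 35.1 under sh4, and 7.91 and 5.46 under sh8. It rose under sh4 with a ratio of 32.2 on 70 reads against 3 (counting interval 10.6 to 160, limma, adjusted p = 0.00209). It was among the tested neighbours only through its sh4 libraries, and without a minimum mean the adjusted p of limma was 0.00107. In ENSG00000253706, the lncRNA that overlaps PI15, values were 43.3, 16.8 and 19.1 in control, 2.26 and 0.746 under sh4, and 5.27 and 1.82 under sh8. It fell by 2.99 log2 units in knockdown (limma, adjusted p = 0.0246), with 80 reads in control, 3 under sh4 and 6 under sh8. It passed the minimum mean only through the control libraries, and without a minimum the adjusted p of limma in knockdown was 0.0197. That knockdown call was lost without sh4 library 1 or any 1 of the shlacZ libraries.

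The other nearest tested neighbours were not called. PDCD7, 2179 bases from UBAP1L, had means of 796 ± 52.5 (SD, n = 3) in control, 583 under sh4 and 637 under sh8. YEATS4, 5476 bases from LYZ, had 922, 620 and 766, opposite in sign to LYZ. TMEM131, 16471 bases from ZAP70, had 2910, 5679 and 3989, a log2 difference of 0.96 under sh4 (limma, adjusted p = 0.00206) just under the fold threshold. C2orf92, 10510 bases away on the other side of ZAP70, had 28.4, 28.9 and 23.4. EXOSC7 and LARS2 beside TMEM158 differed by -0.69 and -0.40 in knockdown, and TRIO beside OTULINL by -0.15. Further knockdown differences were 0.02 for METTL17 beside RNASE1, 0.11 for NEFL beside STC1, 0.16 for GDAP1 beside PI15, -0.16 for CPSF6 beside LYZ and -0.25 for MTFMT beside UBAP1L.

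**Figure D4:**
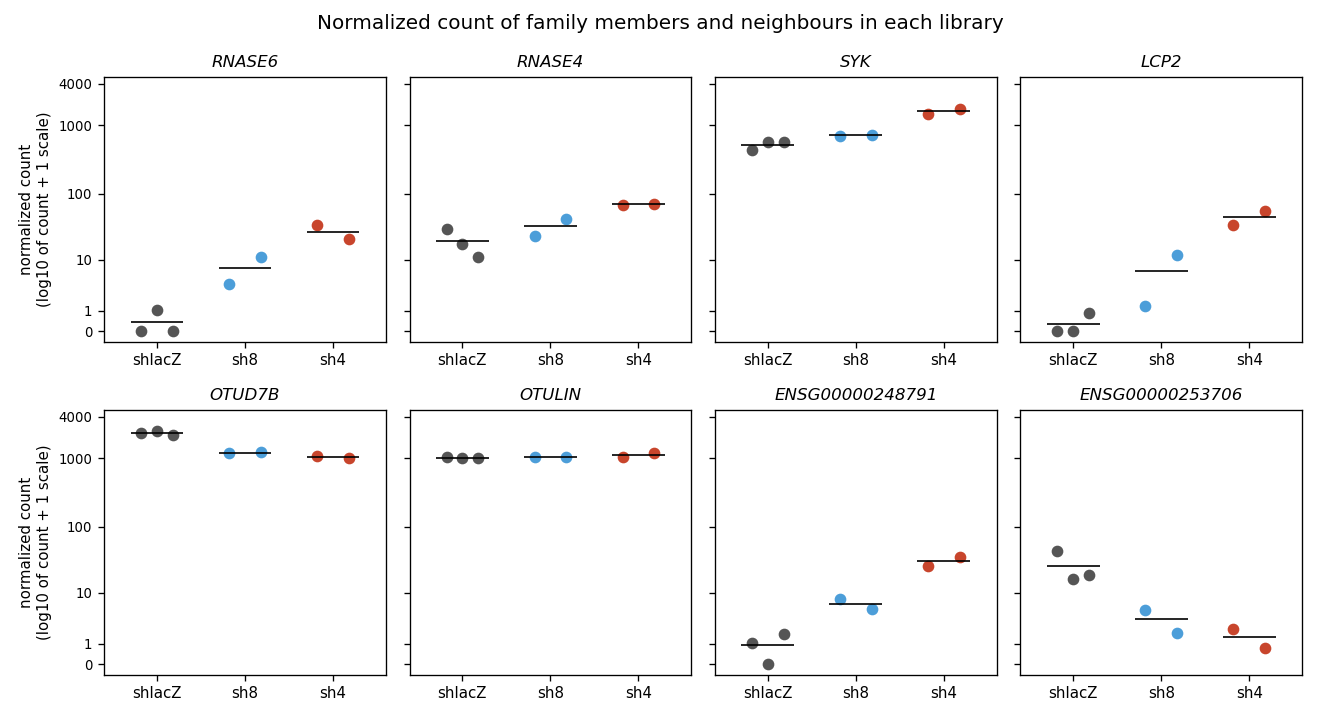
Normalized count (y axis, log10 of the count + 1, labelled in normalized counts) in each library of 6 family genes, the pseudogene beyond OTULINL (ENSG00000248791) and the lncRNA overlapping PI15 (ENSG00000253706), with shlacZ in grey, sh8 in blue, sh4 in red and a black line at the group mean. RNASE6, LCP2 and ENSG00000248791 are at 0 to 1.74 in control and at 20.9 to 55.2 under sh4, while OTULIN stays between 1015 and 1184.

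The genes whose pattern was most like each member were found by Pearson correlation of log2 values over the 7 libraries among the 12042 genes whose mean reached 50. The 7 points fall into 3 groups and share libraries, so high values are common and are given as a description. CADPS, a factor of vesicle exocytosis, was most like RNASE1 (r = 0.993), and CHL1, a cell adhesion molecule, most like STC1 (r = 0.999). SNTB1, a syntrophin, followed OTULINL (r = 0.997), RGS14, a regulator of G protein signalling, followed ZAP70 (r = 0.995), and TBC1D19 followed TMEM158 (r = 0.998). For LYZ it was HCG11, a long non-coding RNA (r = 0.998), with SYK as the third gene (r = 0.993). For PI15 it was OTUD7B (r = 0.992), with CDK2, a cell cycle kinase, as the third (r = 0.992). PRDM7, a relative of the meiotic histone methyltransferase PRDM9, was most like UBAP1L (r = 0.993), with means of 826 in control, 70.8 under sh4 and 95.3 under sh8. The amplitudes differed: HCG11 had means of 427, 651 and 466 in control, sh4 and sh8. The remaining genes in the top 3 were NRBP1 and GNAI2 for RNASE1, HAP1 and CASZ1 for STC1, SLC18B1 for PI15, and STARD3 for LYZ. They were CNBD2 and NARF for TMEM158, MATN3 and MSL3 for OTULINL, MADD and ZFAND3 for ZAP70, and RECQL4 and NUMBL for UBAP1L.

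ZAP70, LYZ and RNASE1 are best known from T cells, myeloid cells and endothelium, so markers of those cells were read in the same libraries. Every gene analysed had at least 10 reads in all. Of 14 T and NK cell markers 4 had values and 10, with PTPRC, CD3E and LCK among them, were not analysed here. The summed normalized count of those 4 was 60.0 to 68.1 in control, 56.0 to 70.0 under sh4 and 46.4 to 64.6 under sh8, and GNLY was at 0 under sh4. Of 14 myeloid markers 2 had values, CD68 and ITGAM, summing to 495 to 675 in control, 443 to 580 under sh4 and 568 to 672 under sh8. Of 11 endothelial markers 1 had values, ESAM, at 5.16 to 9.57 in control, 3.73 to 4.52 under sh4 and 11.8 to 15.8 under sh8. Of these markers 3 passed the minimum mean, and limma called 0 of the 3 against control. The other 4 markers with values, ESAM included, were too low to be tested. The 12 melanocytic markers all had values, and their sum was 149231 to 162587 in control, 114738 to 117620 under sh8 and 65679 to 72019 under sh4. Under sh4 7 of the 12 were called lower and 0 higher (3.37% and 4.79% of all tested genes). DCT fell furthest, by 3.31 (limma, adjusted p = 8.48e-05). MITF (-0.71) and RAB27A (-0.34) were lower under sh4 but short of the fold threshold. TYR, PAX3 and SLC45A2 differed by 0.15, 0.11 and 0.04 in the other direction. Under sh8 0 passed the call rule, and in knockdown 1 did, OCA2 (0.694% of all were called lower). The part of this shift in the levels of the 8 genes was not tested.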

How the data were processed

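RNA from 7 libraries of 501Mel cells (3 shlacZ, 2 sh4 and 2 sh8) was sequenced by the study. Per its methods, ribosomal RNA was removed, stranded paired-end libraries were made, reads were trimmed with Cutadapt, aligned with STAR to hg38 and quantified with Salmon, and the authors normalized the counts with DESeq2. Versions and the annotation release are not given in the sources used here. The authors deposited normalized counts (reads divided by a size factor per library, not log transformed), written with decimal commas. Every value (100%) was a whole multiple of a step per library within 0.001, so the whole counts behind each value, called reads here, were recovered by division. They were used for depth, exact binomial 95% intervals and a floor of 3 reads. As output of Salmon they may be rounded estimates, and the intervals hold no uncertainty of read assignment. The labels name the hairpins sh4 and sh8 only.

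Tests were run on the 15420 of 21305 genes whose mean normalized count reached 10, all 8 members included (RNASE1, LYZ and TMEM158 only through knockdown libraries), on log2(normalized count + 1) with limma 3.58.1 in R 4.3.3 (variance trend, Benjamini-Hochberg adjustment over all tested genes). The pseudocount understates changes of low genes. Knockdown was compared with control in a fit of 2 groups, and sh4, sh8 and their difference in a fit of 3 groups. The fit was checked on simulated data. The members, the lists of related genes and the comparisons were chosen with earlier results of these data known. Named beside the members are the target, the related genes called in any comparison (at most 5 a list by size of the knockdown difference) with the most abundant of each list, neighbours called in any comparison with the nearest on each side (not all are reported here), and the 3 genes most like each member. PLCG1, PLCG2, IGF1R, OTULIN, OTUD1, OTUD6B, YOD1 and ZRANB1, and the markers singled out, were named after their values were seen. Gene positions come from GENCODE 44 (GRCh38), in which 21281 of the gene IDs were found, and promoter sequences from RefSeq (GRCh38.p14). Same-numbered libraries did not deviate together in every pair. Correlations with control were 0.337 and 0.213 for sh4, and 0.117 and -0.078 for sh8, and between sh4 and sh8 the value was 0.034. Replicate numbers were therefore not used as pairs in the main fit, and a fit with them as a block is among the alternatives.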

Additional observations from a re-analysis of the deposited data

Results flagged for a closer look

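For 4 of the genes the values under sh4 differed from those under sh8 in a direct comparison (limma, adjusted p under 0.05 for each). The differences on the log2(normalized count + 1) scale were 2.09 for STC1, 2.49 for TMEM158, 2.04 for OTULINL and 2.00 for ZAP70, each with both sh4 libraries above both sh8 libraries. With 1 library left out the lowest were 1.53, 2.18, 1.73 and 1.65 in the same order. All 4 genes had been picked for large shifts with the sh4 values in view, which can favour such a difference, so the p-values are no independent test. LYZ showed the largest difference of the genes but had been chosen for it, and was not tested. GRASLND itself differed between sh4 and sh8 by -0.34 (95% interval -0.84 to 0.16, limma, adjusted p = 0.421), an interval that holds both 0 and a clearly lower level under sh4. Whether the differences of the 4 genes relate to the GRASLND level or to another property of the hairpins was not tested.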

How the results depend on the processing

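The direction of every member against control held under all 16 alternatives that gave it, with ranges of 3.75 to 5.87 for RNASE1, 2.80 to 7.48 for LYZ, -2.57 to -2.27 for PI15 and -3.19 to -2.39 for UBAP1L in knockdown. Between sh4 and sh8, 4 of 7 members were called, 2 without a variance trend and 0 to 5 when 1 library was left out, and of all genes 492 were called, or 134 to 639 with 1 library left out. STC1 (adjusted p = 0.0653) and ZAP70 (0.0664) lost the limma call without a variance trend. RNASE1 gained it with a pseudocount of 10 (0.00588) and with limma-voom on recovered reads (0.00537). Leaving out 1 library moved the related genes called to 1 to 6 from 2 in knockdown, to 5 to 8 from 7 under sh4, to 0 to 1 from 0 under sh8 and to 0 to 3 from 2 between the hairpins. With a minimum mean of 50 they were 1 in knockdown and 3 under sh4, since fewer genes were tested, and in knockdown 1 with no variance trend and 1 with a pseudocount of 10. With the replicate block they were 1 in knockdown and 1 under sh8, 5 of 7 members were called between the hairpins, RNASE1 (0.0139) included, and of all genes in knockdown 42 were called in place of 307, with RNASE6, ENSG00000248791 and ENSG00000253706 not among them. Without a variance trend that count was 108, and under sh8 57 in place of 178; with 1 library left out it was 56 to 524 in knockdown and 51 to 411 under sh8. The sign of UBAP1L between the hairpins turned to 0.169 without sh4 library 2 and to 0.0453 without sh8 library 1, and lay between -0.782 and 0.169 over all libraries left out. Of the single-gene values, 467 kept their call or stayed within the replicate spread, 33 moved further, 2 turned sign, 6 gained and 12 lost a call. The causes were not tested. A quasi-likelihood count test on the recovered reads was planned and not run, and leaving an arm with 1 library assumes it varies like the other groups. Few control reads limit RNASE1 (15), LYZ (6), ENSG00000248791 (3), RNASE6 and LCP2 (1 each), and ENSG00000253706 had 3 reads under sh4.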
